A study of Homo sapiens with 36 samples.

Results

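MET, AXL, EPHA2, IGF1R, DDR1 and MST1R are 6 of the 20007 protein-coding genes to which the ChIP-seq peaks of this series could be assigned, and each encodes a receptor tyrosine kinase of the cell surface. They were chosen by name, and their peaks were taken within 3 kb of any GENCODE transcription start site, across the gene bodies and, for the Jun proteins, within 100 kb of a start site. The series compared A549, an established human lung adenocarcinoma line, with BEAS-2B (B2B), a non-cancerous human bronchial epithelial line immortalized with viral genes. Both lines were untreated, each is a single established line, and 36 samples formed 18 groups of 2 replicates, including 2 input groups. Chromatin was precipitated in both lines with antibodies to RNA polymerase II (pol II), the promoter mark H3K4me3, the active promoter and enhancer mark H3K27ac, the Mediator subunit Med1 and the AP-1 subunits JunB, Jun and JunD. CTCF and Rad21, proteins of chromatin loops, were used from B2B, and A549 samples of them were not analysed here. The deposited data were 16 peak lists, each called on the 2 merged replicates, so these lists hold no replicate spread, allow no test between the lines, and every comparison below is a description.

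A receptor tyrosine kinase binds a ligand outside the cell and phosphorylates tyrosines inside it, which recruits adaptors of the RAS, PI3K and other growth pathways. MET binds hepatocyte growth factor (HGF), MST1R (also called RON) is its closest relative and binds macrophage-stimulating protein, the product of MST1, and AXL of the TAM family binds GAS6. EPHA2 binds ephrin-A ligands such as EFNA1 on neighbouring cells, IGF1R binds the insulin-like growth factors IGF1 and IGF2, and DDR1 is activated by collagen. AP-1 is a dimer of a Jun protein with a Fos, ATF or other Jun protein, and its classical site reads TGACTCA, or TGAGTCA on the opposite strand.

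The Jun-family regions on which the results turn are shown first, since several held the AP-1 letters close to the summit and some of the strongest did not. A Jun-family region here is a stretch of overlapping JunB, Jun or JunD peaks of either line. Letters are given on the plus strand of hg38 with each AP-1 match (TGACTCA or its reverse complement) or the related TGACGTCA in capitals, and only short stretches are given where the window touched an annotated exon. To the strongest regions of each class (by summed fold enrichment), 2 kinds were added after their values had been seen. These were regions with all 3 proteins in both lines, and regions within 3 kb of a start site found in both lines or with all 3 proteins in A549. Other start-site regions, such as those of B2B alone, were not added by this rule. That made 31 regions, of which 18 held a match in the window taken, TGACGTCA counted too, and 13 did not. Where the window at the summit held none, it was moved to the nearest AP-1 match of the region if there was one. Moved windows hold a match by construction, so these counts are not a split of summits. The stretches shown were picked from the 31 regions, mostly for a match. They do not give the share of regions with one, and the last 2 are examples without a match.
MET start, exon 1 (chr7:116672292-116672320): cgatgcccggcTGAGTCActggcagggca
MET intron 14 (chr7:116772645-116772745): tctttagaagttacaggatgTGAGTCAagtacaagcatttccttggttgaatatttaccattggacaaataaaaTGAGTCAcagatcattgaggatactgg
MET intron 15 (chr7:116776803-116776903): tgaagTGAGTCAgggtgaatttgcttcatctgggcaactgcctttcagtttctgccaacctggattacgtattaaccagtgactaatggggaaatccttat
AXL intron 4, first region (chr19:41223635-41223735): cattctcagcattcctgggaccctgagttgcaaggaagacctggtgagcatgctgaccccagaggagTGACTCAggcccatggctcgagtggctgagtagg
AXL intron 4, second region, around the motif nearest to its summit (chr19:41225656-41225756): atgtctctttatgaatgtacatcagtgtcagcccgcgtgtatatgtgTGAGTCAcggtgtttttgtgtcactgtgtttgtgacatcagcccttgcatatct
IGF1R intron 4, around the motif nearest to its summit (chr15:98896936-98897036): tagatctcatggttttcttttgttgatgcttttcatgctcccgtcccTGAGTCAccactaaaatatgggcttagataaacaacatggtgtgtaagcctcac
EPHA2 intron 1, A549 alone (chr1:16155159-16155187): tttcctcgttcTGAGTCAcccttgctcag
DDR1 intron 1, at the start site (chr6:30886215-30886315): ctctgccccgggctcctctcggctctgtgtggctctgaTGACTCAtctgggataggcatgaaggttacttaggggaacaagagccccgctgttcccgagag
DDR1, far upstream (chr6:30782024-30782052): tctggaccaggTGACGTCAgctatctgga
MST1R intron 1, around the motif nearest to its summit (chr3:49900647-49900747): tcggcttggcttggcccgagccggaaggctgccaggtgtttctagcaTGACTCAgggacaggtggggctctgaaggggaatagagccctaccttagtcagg
IGF1R intron 1, B2B alone (chr15:98669053-98669153): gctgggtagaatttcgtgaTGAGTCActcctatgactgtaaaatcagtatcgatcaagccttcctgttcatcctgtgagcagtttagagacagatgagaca
MET intron 2, all 3 proteins in both lines (chr7:116716745-116716845): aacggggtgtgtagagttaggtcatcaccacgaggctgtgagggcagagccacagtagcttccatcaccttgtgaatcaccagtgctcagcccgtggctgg
EPHA2, 26 kb upstream (chr1:16181985-16182085): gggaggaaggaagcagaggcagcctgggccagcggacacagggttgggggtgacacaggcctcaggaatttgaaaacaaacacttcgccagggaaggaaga

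The 16 lists held between 8563 and 61225 peaks. From the fold enrichment and p of each peak, the reads piled up at its summit and the local background could be solved as whole reads for all 475211 peaks used. The lowest local background of a list, its genome-wide level, was similar in both lines, for example 1.65 reads for pol II in A549 and 1.67 in B2B. Heights are therefore given as summit reads and as summit reads over the genome-wide background of the list, with exact Poisson 95% intervals that cover counting error only. The median local background under all peaks was 11.2 times the genome-wide level in B2B H3K4me3 and 1.36 times in A549 H3K4me3, so fold enrichment, which divides by the local background, is not comparable between the lines. Under the tallest start-site peaks of the 6 genes, the local background of pol II, H3K4me3 and H3K27ac was 1.08 to 7.14 times the genome-wide level in A549 and 5.75 to 29 times in B2B. The B2B Med1 list did not share this, with 1.29 to 1.86 times at the same genes. Absence from a B2B list was read against this background, and its part in the absences was not tested beyond the read numbers given below.

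**Figure D1:**
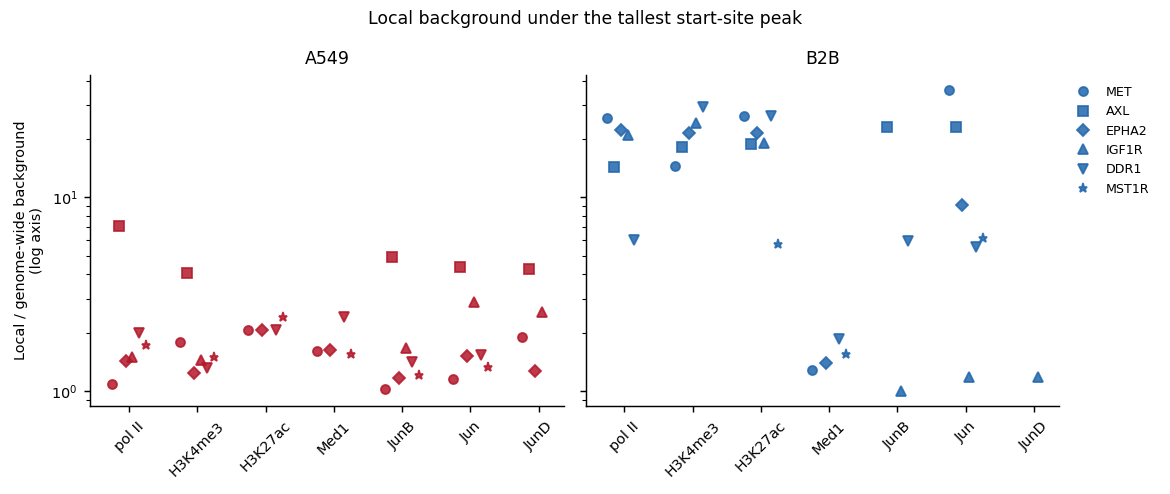
Local background under the tallest start-site peak of each gene, divided by the genome-wide background of its list (log axis), for the 7 targets of both lines; each symbol is a gene. B2B pol II, H3K4me3 and H3K27ac sit at 5.75 to 29 and A549 at 1.08 to 7.14.

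Of the 16 lists, 4 stop before the end of the genome, so AXL and IGF1R lie beyond A549 H3K27ac, A549 Med1 and B2B Med1, and only 4 of the 6 genes were covered by all lists. Scored by an H3K4me3 peak at a start site, 5 of 6 epithelial markers were marked in each line (EPCAM, CDH1, KRT7, KRT8 and KRT18, not KRT19). All 6 mesenchymal markers were also marked in each line, and so were 3 of 5 alveolar markers. Basal airway markers numbered 2 of 5 in A549 (TP63 and NGFR) and 0 of 5 in B2B, and 1 of 5 blood cell markers (PTPRC) was marked in A549 and 0 in B2B. An H3K4me3 peak within 3 kb can belong to a neighbouring gene.

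In A549 every one of the 6 receptor genes carried pol II and H3K4me3 at a start site, and 5 of the 6 did so in B2B, where MST1R, the RON receptor, had neither. A pol II peak was found at a start of 69.6% of all protein-coding genes in A549 and of 51% in B2B, and an H3K4me3 peak at 73.8% and 62.8%. The pattern of MST1R, a peak in A549 and none in B2B, was shared by 19.5% of genes for pol II and 12.9% for H3K4me3. H3K27ac marked 4 of the 4 covered genes in A549 (73.5% of all genes) and 6 of 6 in B2B (65%), and Med1 marked 4 of 4 in each line (54.7% in A549 and 61.1% in B2B). In B2B, CTCF and Rad21, a cohesin subunit, were within 3 kb of a start of all 6 genes, against 50.1% and 68% of all genes. Within 1 kb of a start, CTCF was at 4 of the 6. The start windows of these genes are long, from 13.2 kb for AXL to 68.7 kb for IGF1R with its 16 start sites, which gives more room for a peak than a gene with a single start has.

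Jun-family peaks lay at the starts of most of these genes in A549. JunB lay at a start site of all 6 in A549 and of 3 (AXL, IGF1R and DDR1) in B2B, against 31.1% and 5.28% of all genes. Jun lay at all 6 in both lines, against 38.2% and 25.4%. JunD lay at 4 in A549 (MET, AXL, EPHA2 and IGF1R) and at IGF1R alone in B2B, against 17.8% and 3.22%. JunB in A549 and not in B2B was thus the pattern of 3 of 6 genes (26.7% of all genes), JunD of 3 of 6 (16.2%), and Jun of 0 of 6 (19.3%). A B2B peak of the A549 height would have passed at all backgrounds found there for 1 of the 3 JunB genes (MST1R) and 1 of the 3 JunD genes (AXL), so the other absences may lie below what the B2B lists could show. With the canonical start alone, B2B JunB fell to 1 gene and B2B JunD to 0.

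**Figure D2:**
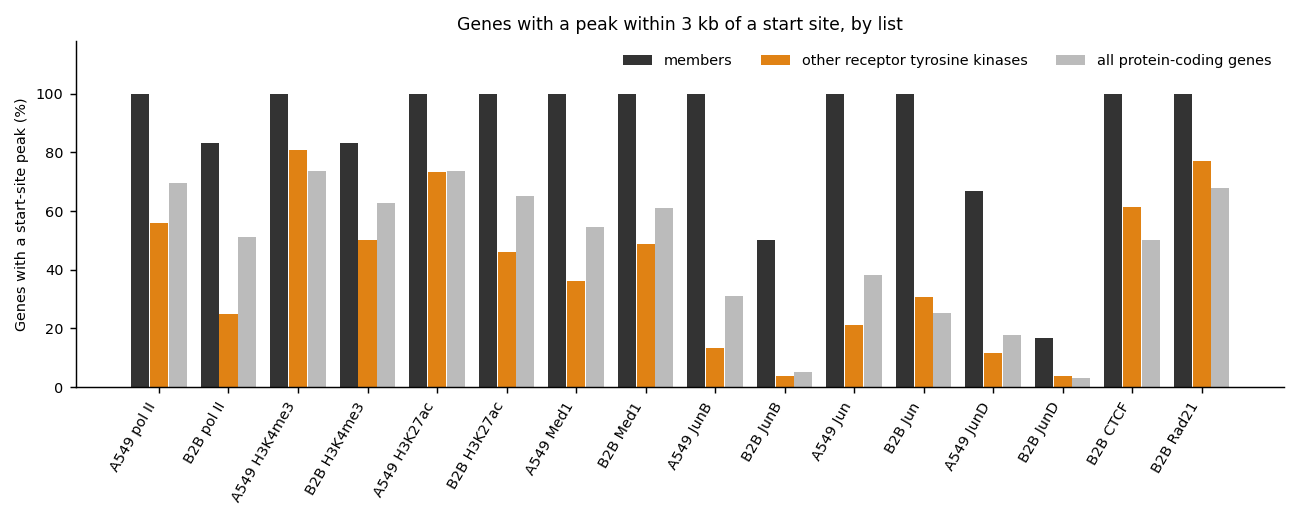
Share of genes with a peak within 3 kb of a start site in each of the 16 lists, for the 6 receptor genes, for 52 other receptor tyrosine kinases and for all protein-coding genes; bars start at 0. For A549 JunB the 3 bars stand at 100, 13.5 and 31.1%.

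**Figure D3:**
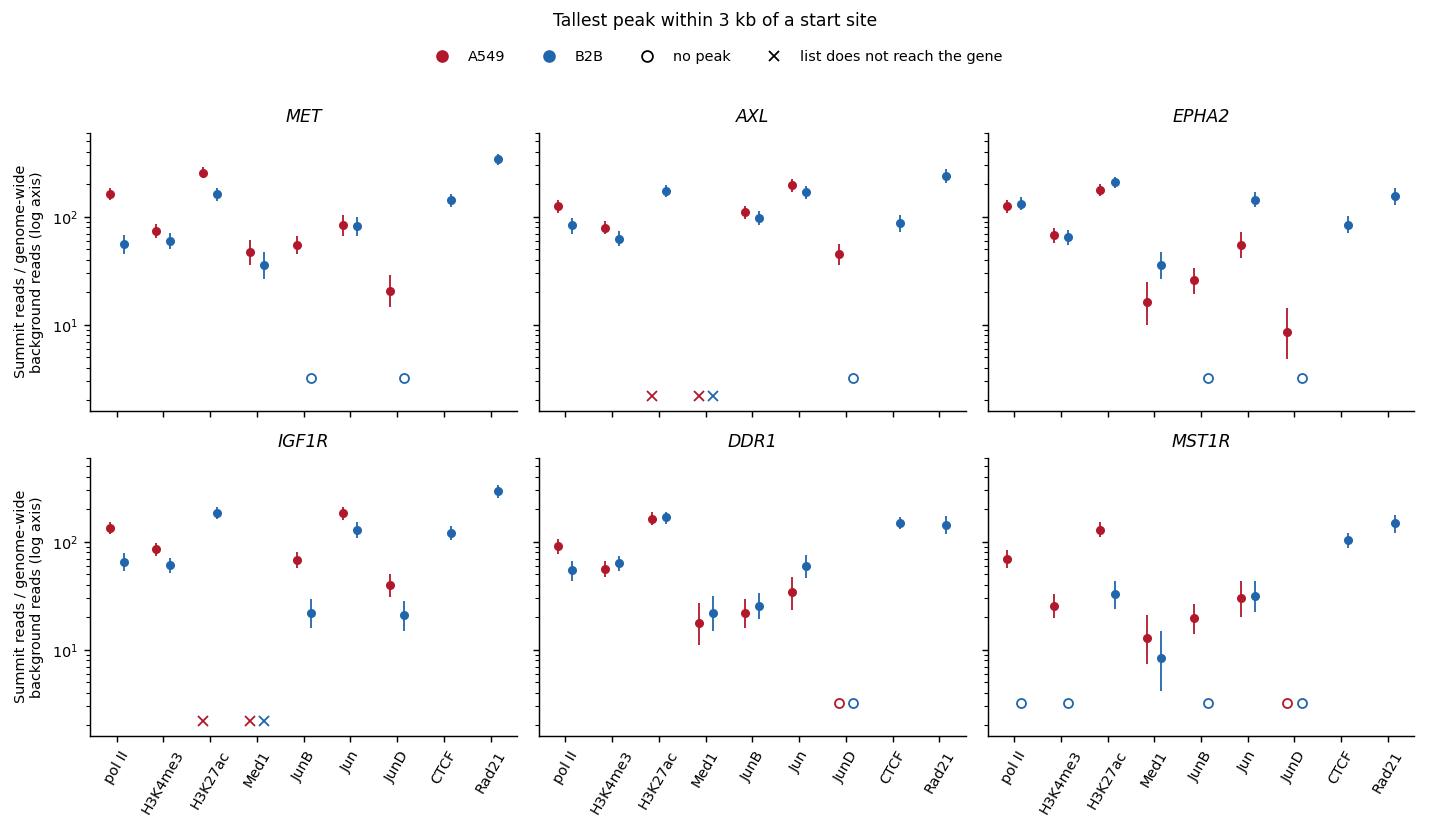
Tallest start-site peak of each gene by target, as summit reads over the genome-wide background of the list (log axis), A549 in red and B2B in blue, with Poisson 95% intervals; open circles are lists without a peak and crosses lists that do not reach the gene. The MET pol II points stand at 163 in A549 and 55.6 in B2B, and MST1R has no B2B pol II or H3K4me3 point.

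MET (ENSG00000105976.16, chr7:116672196-116798377, plus strand) carried its tallest pol II, H3K4me3, H3K27ac and Med1 peaks at the main start in both lines. The pol II summit there held 269 reads in A549, 163 times the genome-wide background (144 to 183), and 93 reads in B2B, 55.6 times (44.9 to 68.1). The intervals do not overlap, and the local background was 1.79 reads in A549 and 43.1 in B2B. H3K27ac was also higher in A549, at 257 times (230 to 287) against 161 times (141 to 183). The H3K4me3 summit was 74.5 times (64.1 to 86.2) in A549 and 59.7 times (50.5 to 70.2) in B2B, and Med1 46.9 times (35.6 to 60.7) and 35.8 times (26.3 to 47.7), with overlapping intervals for both. At MET the intervals thus separated the lines for pol II and H3K27ac and not for H3K4me3 or Med1. The Med1 summits held only 58 reads in A549 and 47 in B2B, and whether the difference was larger for some targets was not tested.

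At the MET start, exon 1 held JunB, Jun and JunD summits in A549 within 30 bases of each other, at 95, 98 and 69 bases past the start. They held 112, 71 and 36 reads, and the JunB height, 54.7 times the background, was above that of 99.2% of covered genes. In B2B only a Jun peak was listed, 96 bases past the start, with 95 reads over a local background of 41.8. Its height over the genome-wide background, 81.6 times (66 to 99.7), overlapped that of A549 Jun at the same place, 71.3 times (55.7 to 89.9). A B2B JunB peak as high as that of A549 would have held about 106 reads, and the B2B peaks there imply that 74 to 108 were needed, so a JunB peak of that height might or might not have been listed. For JunD, 38.9 reads would have fallen short of the 72 needed.

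The start of a MET transcript with no defined coding sequence lies 52 kb into the gene, in intron 2. There A549 had an H3K27ac summit of 167 reads, 134 times the background (114 to 156), an H3K4me3 summit of 111 reads, 45.7 times (37.6 to 55), a pol II summit of 60 reads, 36.3 times (27.7 to 46.7), and a Med1 summit of 23 reads. No B2B list had a peak there, and no Jun-family list of either line had. Across the MET body H3K4me3 gave 13 peaks in A549 and 7 in B2B, or 1.03 and 0.55 per 10 kb, beside means of 0.78 and 0.70 over all genes. The part of the higher B2B background in these counts was not tested.

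AXL (ENSG00000167601.12, chr19:41219223-41261766, plus strand) was marked at its main start and around a downstream start in intron 4. At the main start the pol II summit held 144 reads in A549, 87.1 times the background, and 139 in B2B, 83.1 times, and H3K4me3 stood at 79.5 times (68.6 to 91.5) and 62.6 times (53.1 to 73.2). Those heights were close in both lines. Near the downstream start, 7.2 kb into the gene, A549 pol II rose higher than at the main start, with 207 reads or 125 times (109 to 144), and an H3K4me3 peak of 41.6 times (33.9 to 50.5) stood beside it. In B2B that place had no H3K4me3 peak, 51 pol II reads (30.5 times) and an H3K27ac summit of 199 reads (138 times).

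The tallest Jun-family peaks of AXL were in that same stretch of intron 4, and by summit reads AXL ranked at percentile 99.9 or higher among covered genes in each Jun-family list that held it. JunB reached 226 reads in A549, 110.3 times the background (96.4 to 126), and 191 in B2B, 98.3 times (84.8 to 113). Jun reached 196 reads in each line, 197 times (170.2 to 226) in A549 and 168 times (146 to 194) in B2B. For neither protein did the intervals separate the lines, although the fold enrichment of Jun was 36.8 in A549 and 7.08 in B2B. JunD was listed in A549 alone, with 78 reads. A B2B JunD peak of the same height, 84.3 reads, would have passed the 34 to 75 reads needed there. The A549 Jun summit lay 6564 bases past the start and the B2B one 6972, so the tallest point was in another part of the region. A smaller region 4.5 kb into the gene had more Jun in B2B, with 110 reads or 94.5 times (77.6 to 114) against 57 reads or 57.2 times (43.4 to 74.2) in A549. JunB there held 67 reads in B2B and 74 in A549. CTCF and Rad21 of B2B were also tallest in the downstream stretch, with 132 and 185 reads.

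IGF1R (ENSG00000140443.15, chr15:98648539-98964530, plus strand) had wide pol II and H3K4me3 peaks over its main start in A549, 4549 and 6623 bases, and narrower ones in B2B, 251 and 233 bases at the tallest point. Pol II stood there at 134 times (117 to 153) in A549 and 65.1 times (53.5 to 78.6) in B2B, and H3K4me3 at 85.6 times (74.4 to 98.1) and 60.5 times (51.2 to 71). Both were higher in A549 with intervals that do not overlap. The local background at these summits was 2.48 and 3.53 reads in A549 and 34.9 and 59.6 in B2B. Its part in the called widths was not tested. Over all start windows of the gene, pol II and H3K4me3 peaks covered 8434 and 8972 bases in A549 and 5156 and 7471 in B2B. H3K27ac at the start was covered in B2B alone, at 185 times. Jun-family peaks within 1.5 kb of the main start were low in A549, at most 19 reads for JunB, 25 for Jun and 23 for JunD, and B2B had none there. The B2B pol II and H3K4me3 backgrounds were high at this start, and the reads that a B2B Jun-family peak needed are not given. These absences may lie below what the B2B lists could show. CTCF and Rad21 of B2B were tallest just upstream of the start, with 183 and 226 reads.

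The tallest Jun-family peaks of IGF1R were deep in its introns. In intron 4, 248 kb into the gene and next to the start of a short transcript, all 3 proteins were listed in both lines, and the summed fold enrichment over the 6 lists was 184. That was the highest near the 6 genes, but summed as height over the genome-wide background the AXL intron 4 region was higher, 618 against 464. Jun held 183 reads in A549, 184 times the background (158 to 212), and 150 in B2B, 129 times (109 to 151). JunB held 140 reads in A549, 68.3 times (57.5 to 80.6), against 43 in B2B, 22.1 times (16 to 29.8). JunD held 69 reads, 39.8 times (30.9 to 50.3), against 39 reads, 20.8 times (14.8 to 28.4). All 3 were higher in A549 over the genome-wide background. The local backgrounds of JunB, Jun and JunD were 3.42, 2.85 and 4.42 reads in A549 and 1.94, 1.37 and 2.21 in B2B. Fold enrichment over them was 31.9, 47.8 and 12.9 in A549 and 14.9, 63.6 and 12.5 in B2B. On that scale Jun was higher in B2B and JunD was close in both lines. In intron 2, 79.3 kb into the gene, JunB and Jun were strong in both lines, with 138 and 133 reads in A549 and 120 and 171 in B2B, and JunD was listed in A549 alone with 43 reads.

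EPHA2 (ENSG00000142627.13, chr1:16124337-16156069, minus strand) had summits of similar height over the genome-wide background at its main start in both lines. Pol II stood at 126 times the background (109 to 144) in A549 and 132 times (115 to 151) in B2B, H3K4me3 at 67.5 and 65 times, and H3K27ac at 178 times (155 to 203) and 208 times (185 to 233). Med1 over the start held 20 reads in A549 and 32 in B2B. None of these pairs had separate intervals. Under the pol II, H3K4me3 and H3K27ac summits the local background was 2.36, 3.01 and 2.59 reads in A549. In B2B it was 37.3, 53 and 30.9 reads. In A549 pol II peaks covered 50.6% of the gene, against 8.14% in B2B. The part of the higher B2B background in this coverage was not tested.

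The tallest Jun-family peaks of EPHA2 differed by place. In intron 1, about 0.9 kb past the start, A549 had JunB, Jun and JunD with 53, 39 and 15 reads, and B2B had none. At the start itself A549 had 19 JunB and 24 Jun reads, and B2B had a Jun peak of 29 reads about 0.9 kb before it. A B2B JunB peak of the intron 1 height, 50.3 reads, would have been under the 58 to 72 reads needed there, and JunD also. In intron 3, 9.59 kb past the main start and beside the start of a short transcript, Jun held 168 reads in B2B, 144 times the background (123 to 168), and 55 in A549, 55.2 times (41.6 to 71.9). Jun was thus higher in B2B there, with intervals that do not overlap, over a local background of 10.6 reads in B2B and 1.51 in A549. The B2B Med1 list had its tallest EPHA2 peak in the same place, 47 reads or 35.8 times (26.3 to 47.7). JunB was listed there in A549 alone, with 29 reads. A further region of both lines lay 26 kb before the start, nearest to ARHGEF19, with 66 JunB and 65 Jun reads in A549 and 85 Jun reads in B2B. It was the strongest near EPHA2 by summed fold enrichment (54 against 46.3 in intron 3), and the intron 3 region by summed height over the genome-wide background (213 against 170.5).

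DDR1 (ENSG00000204580.14, chr6:30876421-30900156, plus strand) has 51 start sites, and its marks gathered around the canonical start. Pol II was tallest in intron 1, about 1.7 kb past that start, with 150 reads or 90.8 times (76.8 to 107) in A549 and 91 reads or 54.4 times (43.8 to 66.8) in B2B. H3K4me3 was 56.4 times (47.3 to 66.7) and 63 times (53.5 to 73.7), and H3K27ac 164 and 168 times, with overlapping intervals. In the same part of intron 1 JunB and Jun were listed in both lines and JunD in neither. JunB held 45 reads in A549 and 50 in B2B, and Jun 34 reads, 34.1 times (23.6 to 47.7), and 69 reads, 59.3 times (46.1 to 75). B2B CTCF was tallest near the most upstream start of DDR1, 6.6 kb before the canonical one, with 225 reads.

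The strongest Jun-family region near DDR1 lay 103 kb before its canonical start, and the nearest start of a protein-coding gene was that of IER3. Jun held 162 reads there in A549 and 146 in B2B, JunB 47 and 41, and JunD 42 and 37. Every protein was thus listed in both lines, with close read numbers. H3K27ac, Med1 and pol II of both lines, H3K4me3 of A549 and CTCF and Rad21 of B2B overlapped it.

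MST1R (ENSG00000164078.14, chr3:49887002-49903873, minus strand) had the lowest start-site height of the covered genes in every A549 list that held it and lacked pol II, H3K4me3, JunB and JunD at its starts in B2B. At its main start A549 had 115 pol II reads, 69.6 times the background (57.5 to 83.5), 161 H3K27ac reads, 129 times (109.9 to 151), and 62 H3K4me3 reads, 25.5 times (19.6 to 32.7). B2B had none of these 3 within the start itself. A pol II summit as high as that of A549 would have held 116 reads in B2B, above the 50 needed at the background of the B2B Rad21 peak there. An H3K4me3 summit as high as that of A549, 63.2 reads, would have missed the 67 needed, so a difference in H3K4me3 was not detectable here.

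In intron 1 of MST1R, 2.7 to 3.1 kb past the start, A549 had a second pol II summit of 112 reads with H3K27ac of 84, JunB of 40 and Jun of 30 reads. B2B kept some signal at that place, with 47 H3K27ac reads (32.6 times), 11 Med1 reads and 37 Jun reads, 31.8 times (22.4 to 43.8) against 30.1 times (20.3 to 43) for Jun in A549. A JunB peak of the A549 height would have held 37.9 reads in B2B, above the 28 to 32 needed. The B2B CTCF and Rad21 peaks of MST1R were tallest 2.6 kb before the start, with 156 and 114 reads.

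Within 100 kb of a start site the 6 genes had 116 Jun-family regions of 72011 in the genome. IGF1R had 42, MET 28, EPHA2 20, AXL 12, DDR1 9 and MST1R 5, against a median of 7 for protein-coding genes (quartiles 4 and 11). By number MET stood above 99% of genes, IGF1R above 99.9% and EPHA2 above 95.6%, and MST1R above 30.2%. Since genes with scattered starts have wider windows, regions per 100 kb of window are also given, 9.41 for MET, 8.99 for EPHA2, 8.33 for IGF1R, 5.78 for AXL, 4.08 for DDR1 and 2.36 for MST1R, beside a median of 3. All 6 genes had a region in each line, as did 91.9% of genes in A549 and 88% in B2B. A start of the receptor gene itself was the nearest protein-coding start for 80 of the 116, and 61 lay inside the gene body.

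**Figure D4:**
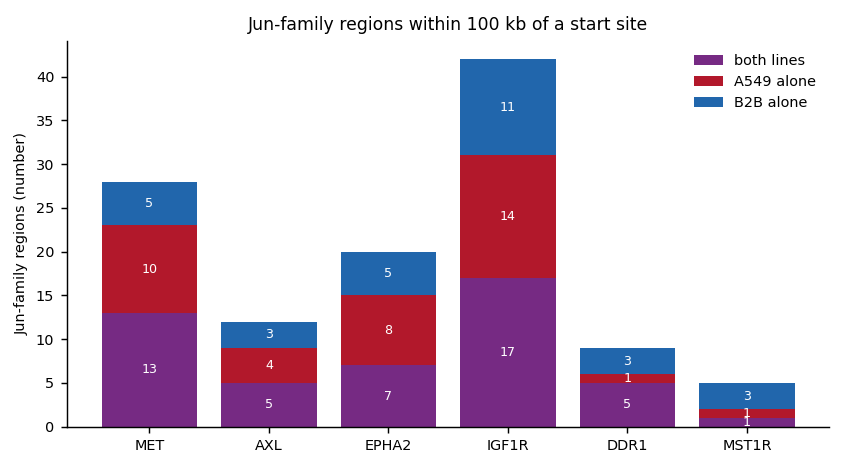
Number of Jun-family regions within 100 kb of a start site of each gene, split into regions found in both lines, in A549 alone and in B2B alone. IGF1R has 17, 14 and 11 and MST1R 1, 1 and 3.

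Of the 116 regions, 48 (41.4%) were found in both lines, 38 (32.8%) in A549 alone and 30 (25.9%) in B2B alone, whereas over the genome the shares were 26.5, 34.1 and 39.4%. The regions of B2B alone were of 1 kind: all 30 held Jun and neither JunB nor JunD, as did 85.1% of such regions genome-wide. A549 held all 3 proteins at 15 regions (12.9%, beside 9.26% in the genome) and B2B at 5 (4.31%, beside 6.07%). All 3 were held in both lines at 3 of the 116 regions, beside 1484 of 72011 in the genome. The 3 regions lay in MET intron 2, in IGF1R intron 4 and far upstream of DDR1. The MET region, 44.6 kb into the gene, held 37, 90 and 21 reads of JunB, Jun and JunD in A549 and 27, 86 and 24 in B2B. By summed fold enrichment the MET regions ranked intron 15 first (84.1), then intron 2 (75.3) and exon 1 (72.8), and by summed height over the genome-wide background exon 1 (228), intron 2 (221) and intron 15 (164). Regions of both lines were also the tallest, with a median of 46 times the genome-wide background, against 15.9 for A549 alone and 15 for B2B alone. Over all regions of the genome the medians showed the same order of both lines above either alone, at 37.8, 15.1 and 16.3 times. A region of both lines can draw its height from more lists than a region of 1 line, and the part of this in the order was not tested.

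**Figure D5:**
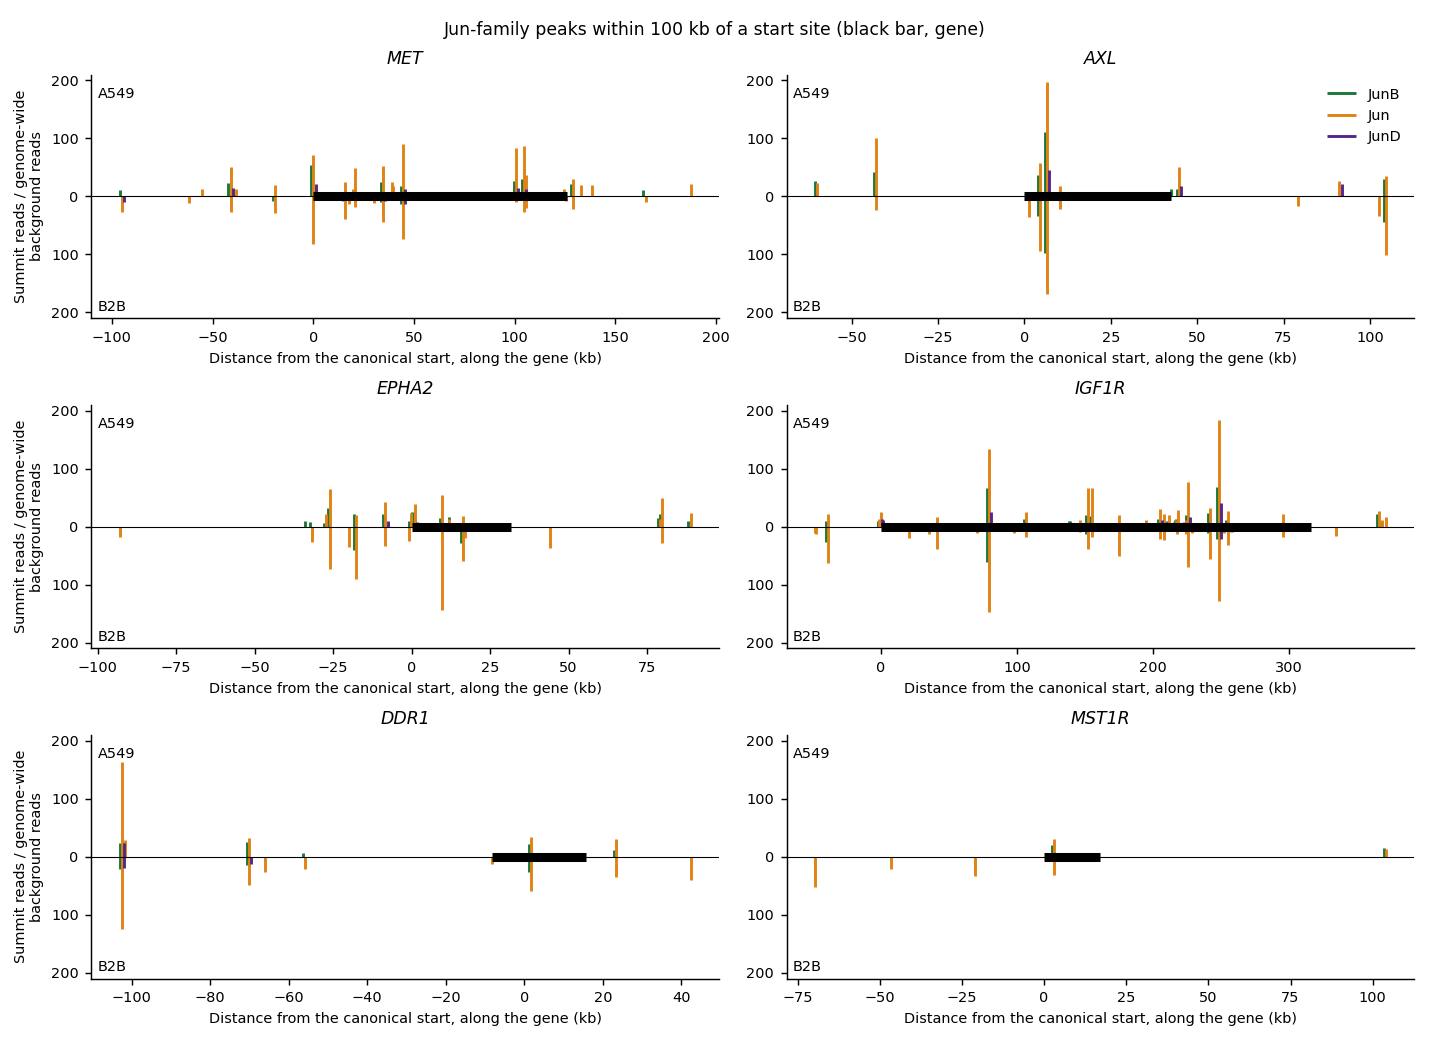
Jun-family peaks within 100 kb of a start site by distance from the canonical start along the gene (kb), A549 upward and B2B downward, with JunB in green, Jun in orange and JunD in purple, as summit reads over the genome-wide background; the black bar is the gene. The tall lines of AXL stand 6.56 kb and those of IGF1R 79.3 and 249 kb into the gene.

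By summed fold enrichment and by summed height, which both add up more lists for a region of both lines, the strongest region of A549 alone ranked below that of both lines at every gene. At MET it lay in intron 2, 39.1 kb in, and held 24 Jun reads. At AXL it lay 44.8 kb past the start, nearest to HNRNPUL1, with 26, 50 and 32 reads of JunB, Jun and JunD, and at IGF1R 366 kb past the start, nearest to PGPEP1L, with 45 JunB and 26 Jun reads. The strongest region of B2B alone near MST1R, on both scales, lay 69.6 kb before the start, nearest to RBM6, with 60 Jun reads. Had the strongest peak of each region been as high in the other line, 28 of 38 regions of A549 alone would have passed in B2B. Of B2B alone, 30 of 30 would have passed in A549. The genome-wide background was taken for the 26 and 25 regions that no peak of the other line overlapped. It is the lowest background of a list, at which a peak passes most easily. These counts therefore do not show how many such peaks would have been listed.

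The marks at these regions differed with the line that held them. Regions of both lines overlapped A549 pol II in 29 of 48 and A549 H3K4me3 in 22 of 48, against 39.9% and 22.1% of all such regions of the genome. In B2B the same regions overlapped pol II in 20 and H3K4me3 in 13 of 48, 41.7% and 27.1% beside 27.5% and 12.4% in the genome. Regions of A549 alone overlapped A549 pol II in 23 and B2B pol II in 10 of 38, 60.5% and 26.3% beside 46.2% and 20.3%. Regions of B2B alone overlapped A549 pol II in 5 and B2B pol II in 6 of 30, 16.7% and 20% beside 2.92% and 12.5%. CTCF of B2B overlapped 22 of the 48 regions of both lines (45.8%, beside 39.7% in the genome), 5 of 38 of A549 alone (13.2% in both) and 6 of 30 of B2B alone (20%, beside 26.5%).

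The AP-1 letters TGACTCA or TGAGTCA, a pair that reads as each other on the opposite strand, were searched within 50 bases of each summit, and in all 6 lists the interval of the share near the 6 genes held the share of the whole list. In A549 they were found at 32 of 64 JunB summits (50%, Wilson 95% interval 38.1 to 61.9), 32 of 75 Jun summits (42.7%, 32.1 to 53.9) and 6 of 22 JunD summits (27.3%, 13.2 to 48.2). All A549 summits held them in 46.2, 42 and 34.2%. In B2B they were found at 9 of 18 JunB (50%), 33 of 79 Jun (41.8%) and 2 of 8 JunD summits (25%), beside 53.6, 39.8 and 42.8% of all. Windows 2 kb to each side of all summits held them in 1.23 to 1.74%. By region the letters stood at the strongest summit of 24 of 48 regions of both lines (50%, 36.4 to 63.6). They stood at 12 of 38 of A549 alone (31.6%, 19.1 to 47.5) and 7 of 30 of B2B alone (23.3%, 11.8 to 40.9). MET had them at 13 of 28 regions (46.4%, 29.5 to 64.2) and EPHA2 at 5 of 20 (25%, 11.2 to 46.9). The intervals overlap between the classes and between the 2 genes, and the shares over all regions of the genome were not counted.

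Some of the strongest summits had no copy of these letters within 50 bases. In MET exon 1, TGAGTCA lay 15 bases past the JunB summit, and in MET intron 14 it stood on each side of the Jun summit, 27 bases away. The intron 4 regions of AXL and IGF1R had their nearest copy 81 and 57 bases from the summit, and the MET region with all 3 proteins in both lines had 0 copies. The far upstream DDR1 region held TGACGTCA 23 bases from its summit and no copy of the 7-base letters.

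Other genes of the pathway were read from lists chosen by name. Of 52 other receptor tyrosine kinases, 29 had a pol II start-site peak in A549 and 13 in B2B, 42 and 26 had H3K4me3, 7 and 2 had JunB, 11 and 16 Jun, and 6 and 2 JunD. Pol II and JunB in both lines, H3K4me3 in B2B, and Jun and JunD in A549 were at smaller shares of them than of all genes. For example, JunB in A549 was at 13.5% beside 31.1%, and pol II in B2B at 25% beside 51%. Larger shares were found for H3K4me3 in A549 (80.8% beside 73.8%), Jun in B2B (30.8% beside 25.4%) and JunD in B2B (3.85% beside 3.22%). The share of the 6 genes stood above that of all genes in each of these lists. Of 26 genes of ligands, their binding proteins and their processing, 15 had JunB in A549 and 4 in B2B (57.7% and 15.4%, beside 31.1% and 5.28% of all genes). Of 25 adaptors and signal relays, all 25 had H3K4me3 in both lines, beside 73.8% of all genes in A549 and 62.8% in B2B. JunB was at 12 of the 25 in A549 (48%) and 4 in B2B (16%).

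Some relatives of the 6 genes, picked by name and not the whole of their families, had few Jun-family peaks at their starts. TYRO3, MERTK (both of the TAM family), INSR (the insulin receptor), DDR2 (the other collagen receptor), EPHA1, EPHB2 and EPHB4 had JunB or JunD in neither line. EPHB2 had a Jun peak in each line, and MERTK, EPHA1 and DDR2 had 1 in B2B alone. Among these relatives pol II was listed in A549 for all but DDR2, and in B2B for EPHA1 and EPHB2 alone.

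Among the ligands, HGF had no start-site peak in any list. MST1 had 2 pol II peaks in A549 and 0 in B2B, and no Jun-family peak. GAS6, the ligand of AXL, had pol II, H3K4me3, JunB and Jun in both lines and JunD in A549. IGF1 and IGF2 had no pol II peak in either line. IGF2 had a JunB peak of 20 reads and a Jun peak of 19 in A549, and IGF1 a Jun peak of 12 reads in B2B. EFNA1 had 3 pol II peaks in A549 and 5 in B2B, with Jun in both lines and JunB in A549.

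The genes most like each receptor were found from the percentile of the strongest start-site fold enrichment in every list that covered both genes. FAT1 and CXCL2 were closest to MET over 16 lists, with a mean difference of 5.97 and 6.05 percentile points, against a median of 41.7 over all genes. EHD2 and CCDC85C were closest to AXL (5.21 and 5.75, over 13 lists), and SUN1 and ANXA2 to IGF1R (2.67 and 3.46, over 13). IMPDH2 and TCF7L2 were closest to EPHA2 (5.6 and 6.46, over 16), ATN1 and HSPG2 to DDR1 (5.46 and 5.51), and CDC42BPG and P2RY6 to MST1R (5.5 and 7.23).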

How the data were processed

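Per the labels and the study's methods, the authors aligned reads to hg38 with Bowtie2 2.4.4, removed duplicates, merged the 2 replicates of a group, normalized them by CPM with SAMtools 1.13 and called narrow peaks with MACS2 2.2.7.1. Whether a control entered the calling is not given in the sources used here, and the input groups have no list. The deposited values are a score (10 times −log10 q), a fold enrichment over local background (a ratio), −log10 p and the summit offset, and q was taken from the score.

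Contigs outside the main chromosomes (1753 peaks) were left out, and starts came from GENCODE release 44. Overlaps needed 1 bp. Summit reads k and background b were solved from fold = (k + 1)/(b + 1) and the Poisson p, to within 0.01 of −log10 p, and the solver was tested on simulated data. Python 3.11.15, SciPy 1.17.1, pysam 0.24.0, pandas 2.3.3, numpy 2.4.6 and matplotlib 3.10.9 were used. Depth is known only through these backgrounds. The genes and lists were chosen with earlier results of these data known. Named besides the 6 genes were their 2 most alike genes, close relatives, ligands, and the strongest region of each class by summed fold enrichment. Alternatives changed distance, start choice, q, list length, overlap and motif window.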

Additional observations from a re-analysis of the deposited data

How the results depend on the processing

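Of 189 values recomputed under an alternative, 177 moved by at most 1.5 times or, for motif shares, stayed inside their interval. With the canonical start alone, B2B JunB peaks fell to 1 of the 6 genes and B2B JunD to 0. At 1 kb from a start, the other receptor tyrosine kinases gave 1 gene for B2B JunB, 10 for B2B Jun and 0 for B2B JunD, and lists of equal length gave 2 for A549 JunB. At 200 kb the Jun-family regions rose to 184, with 64 in A549 alone and 48 in B2B alone, since the window is wider. Chosen after the data were seen, the check of equal height in B2B left 0 genes with H3K4me3 in A549 and none in B2B, 1 with JunB (MST1R) and 1 with JunD (AXL). Ranked by summed height, also chosen later, 13 of the 18 regions strongest by summed fold enrichment stayed first of their gene and class. Counting TGACGTCA too moved no motif share out of its interval. Local background limits what the B2B lists could show. No paired analysis was possible because each list pools its 2 replicates, and for the same reason leaving out a replicate was not possible.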
